A study of Mus musculus with 18 samples.

Results

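The 10 genes described here are grouped under fatty acid synthesis and desaturation: Acly, Me1, Acaca, Fasn, Elovl6, Scd1, Fads1, Srebf1, Thrsp and Pnpla3. Most encode or regulate de novo lipogenesis, the making of fatty acids from acetyl-CoA. Fads1 is a desaturase of polyunsaturated fatty acids and Pnpla3 a lipid droplet hydrolase. The 10 were chosen by name, as the rows of the deposited expression table with these symbols, and each matched 1 of 54838 genes. In the liver, citrate exported from mitochondria is cleaved to acetyl-CoA, acetyl-CoA carboxylase turns this into malonyl-CoA, and fatty acid synthase builds palmitate from it with reducing power from NADPH. Elongases and desaturases then lengthen the chain and introduce double bonds, and the products go into triglycerides and membranes. The transcription factors SREBP-1c and ChREBP switch this program on after feeding, in response to insulin and glucose, and it is raised in many liver tumours.

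Total RNA was extracted with Trizol from flash-frozen tissue and sequenced on an Illumina HiSeq. The 18 libraries came from C57BL/6 mice, aged 36 weeks by the labels and, for those given DEN, male by the study's methods, and fell into 6 groups of 3. WT mice were compared with GKO mice, which lack the miR-181ab1 cluster (the genes of miR-181a-1 and miR-181b-1) in every tissue, so that the deletion was not limited to hepatocytes. WT tumours, GKO tumours and the non-tumour livers of both genotypes came from mice given a single intraperitoneal dose of 25 mg/kg diethylnitrosamine (DEN), a carcinogen activated in hepatocytes, at postnatal day 12. WT and GKO normal livers came from untreated mice, and both genotypes were represented in every tissue. The labels did not tie a tumour to the non-tumour liver of the same mouse, nor state whether 3 tumours came from 3 mice, so p-values measure the spread between these samples. Libraries held between 11925059 and 20751353 reads assigned to genes. Values are TPM, in which read counts are divided by gene length and scaled to a total of 1000000 in each library, so levels can be set side by side between genes. In bulk tissue, fewer cells of a type and less RNA per cell cannot be told apart.

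Because the groups differ in miR-181, the mature miRNAs of the deleted cluster and the members that carry a match to them are shown first. The same mature forms are also made from a second cluster that GKO mice keep, and their levels were not measured here. The mature forms from RefSeq share a seed, bases 2 to 8, which is in capitals.
miR-181a-5p: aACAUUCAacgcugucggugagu
miR-181b-5p: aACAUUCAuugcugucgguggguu
The precursor of the first was listed at 0 TPM in 17 of the 18 libraries, with 1 read in GKO tumour 3, and that of the second at 0 in 18, so the genotype could not be checked from these genes in libraries of this kind. The letters TGAATGT, which pair with the seed, followed by an A were searched in the 3′ UTR of 1 transcript a gene in GENCODE M21 (mm10), that with the longest coding sequence. Of the 10 members, Scd1 and Me1 held such a match, and so did 999 of 21101 genes (4.73%). The 2 sites are shown with the matched bases in capitals. The Me1 match began at base 1314 of a 3′ UTR of 1366 bases, at chr9:86581416-86581423 on the minus strand. The Scd1 match began at base 2484 of 3464, at chr19:44395428-44395435 on the minus strand.
Me1: gtagttgtaaaTGAATGTAtttacctatgc
Scd1: cagtttccagaTGAATGTActaatagcttt
A match describes the letters of the window and not binding.

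Scd1 had the highest level of the 10 members and Pnpla3 the lowest. Scd1, the desaturase that makes oleate and palmitoleate, averaged 878 ± 239 TPM in WT normal livers and 843 ± 309 TPM in GKO normal livers (mean ± SD, n = 3 in each group throughout). Fads1, the delta-5 desaturase of polyunsaturated fatty acid synthesis, averaged 97.6 ± 5.99 TPM and 107 ± 29.4 TPM in the same groups. Me1, malic enzyme, a source of NADPH, averaged 41.9 ± 12.0 TPM and 41.3 ± 3.86 TPM. These were the 3 most abundant members in normal liver of either genotype by group mean. Acaca, acetyl-CoA carboxylase, stood at 1.91 to 2.67 TPM over the 6 normal livers. Pnpla3, a lipid droplet hydrolase, was at 0 in 3 of the 6 normal livers and at 0.455 TPM or less in the rest.

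**Figure D1:**
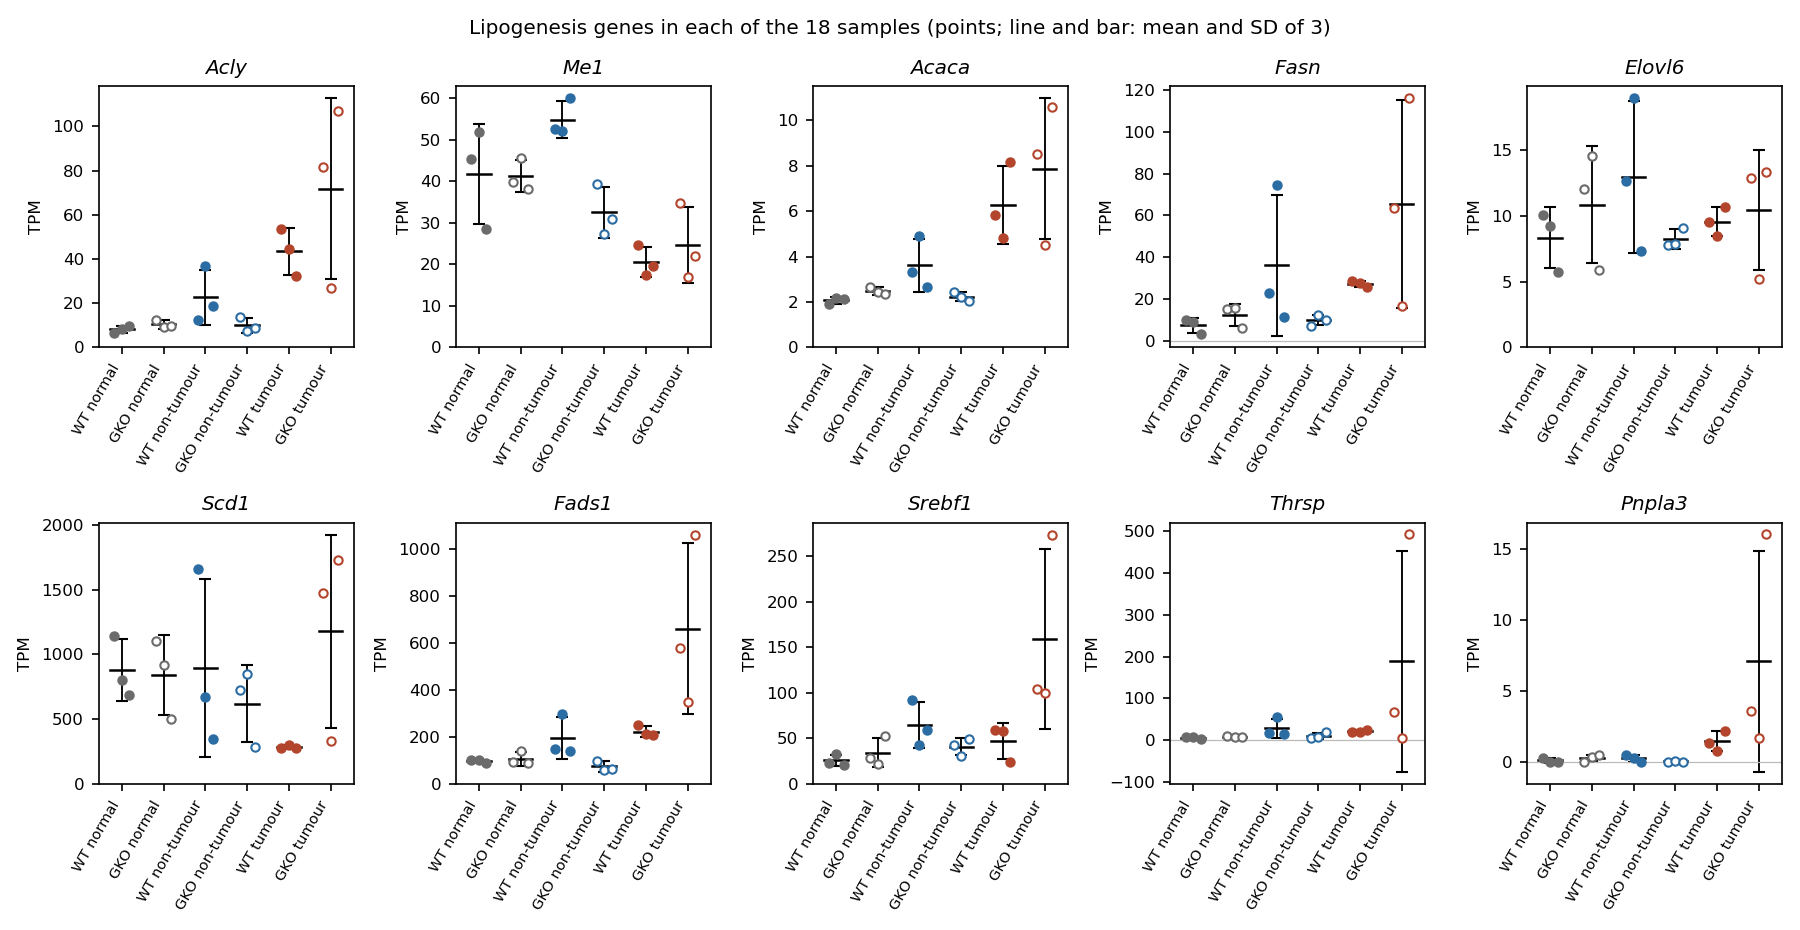
Expression of the 10 genes in each of the 18 libraries, with TPM on the vertical axis of each panel and the 6 groups along the horizontal axis. Filled points are WT and open points GKO libraries, and the line and bar give the mean and SD of 3. GKO tumours spread furthest in most panels, with Thrsp from 6.09 to 492 TPM.

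The first comparison asked which members differed between tumours and non-tumour livers after DEN, over both genotypes. Acly, Acaca, Fads1 and Pnpla3 rose in tumours and Me1 fell, as called by limma at an adjusted p under 0.05, and the other 5 did not pass. Pnpla3 passed the filter on low values through the tumours, in which it was higher, so it is left out of every count and median given over 9 members, and counts over 10 include it. Of the other 9 members 3 rose and 1 fell, whereas 20.1% of all 14106 genes tested were called, 12.2% as higher and 7.87% as lower. Higher genes made up 60.8% of these calls, and 44.5% with every library centred on its median. The median log2 difference of the 9 was 1.02, beside 0.08 over all genes tested. None of the 9 had tumours that all lay beyond all non-tumour livers, and 7.86% of all genes did.

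Acly cleaves citrate to acetyl-CoA (ENSMUSG00000020917, chr11:100476353-100528000, minus strand, mm10). It was at 53.4, 44.5 and 32.2 TPM in WT tumours and at 12.6, 36.6 and 18.6 TPM in WT non-tumour livers. In GKO tumours it was at 81.4, 27.1 and 106.9 TPM, and in GKO non-tumour livers at 13.7, 7.57 and 8.67 TPM. In the GKO mice every tumour exceeded every non-tumour liver, while WT non-tumour liver 2 lay within the range of the WT tumours. Acly rose by 1.79 on the log2(TPM + 1) scale in tumours of both genotypes (SE 0.41, limma adjusted p = 0.0101).

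Acaca carries out the committed step, the carboxylation of acetyl-CoA (ENSMUSG00000020532, chr11:84129672-84401651, plus strand). Its levels were 5.85, 4.81 and 8.16 TPM in WT tumours and 3.32, 4.90 and 2.64 TPM in WT non-tumour livers. GKO tumours had 8.52, 4.50 and 10.6 TPM, and GKO non-tumour livers 2.45, 2.21 and 2.05 TPM. WT tumour 2 was below WT non-tumour liver 2, and the 2 GKO groups did not overlap. Acaca rose by 1.02 on the log2(TPM + 1) scale (SE 0.23, limma adjusted p = 0.00866), and on this scale the change of a gene at so low a level is understated.

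Fads1 (ENSMUSG00000010663, chr19:10182888-10196877, plus strand) was at 249, 213.5 and 207 TPM in WT tumours and at 147, 296 and 140.4 TPM in WT non-tumour livers. It reached 577.5, 347 and 1060 TPM in GKO tumours, against 99.2, 60.3 and 62.9 TPM in GKO non-tumour livers. The 3 GKO tumours were the 3 highest of all 18 libraries for this gene, and in WT mice the highest value was in a non-tumour liver. Fads1 rose by 1.65 on the log2 scale over both genotypes (SE 0.48, limma adjusted p = 0.0312). That call was lost without a filter on low values, with the replicate number as a block, and without WT non-tumour liver 1 or any 1 of the GKO non-tumour livers or GKO tumours (adjusted p between 0.05001 and 0.0758 over the alternatives that lost it).

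Me1 (ENSMUSG00000032418, chr9:86581371-86695953, minus strand) moved the other way. WT tumours had 24.6, 17.4 and 19.6 TPM and WT non-tumour livers 52.6, 52.1 and 59.96 TPM. GKO tumours had 34.8, 16.9 and 22.1 TPM and GKO non-tumour livers 39.4, 27.3 and 30.9 TPM. The WT groups were well apart, and GKO tumour 1 lay within the range of its non-tumour livers. Me1 fell by 0.91 on the log2 scale (SE 0.23, limma adjusted p = 0.0158).

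**Figure D2:**
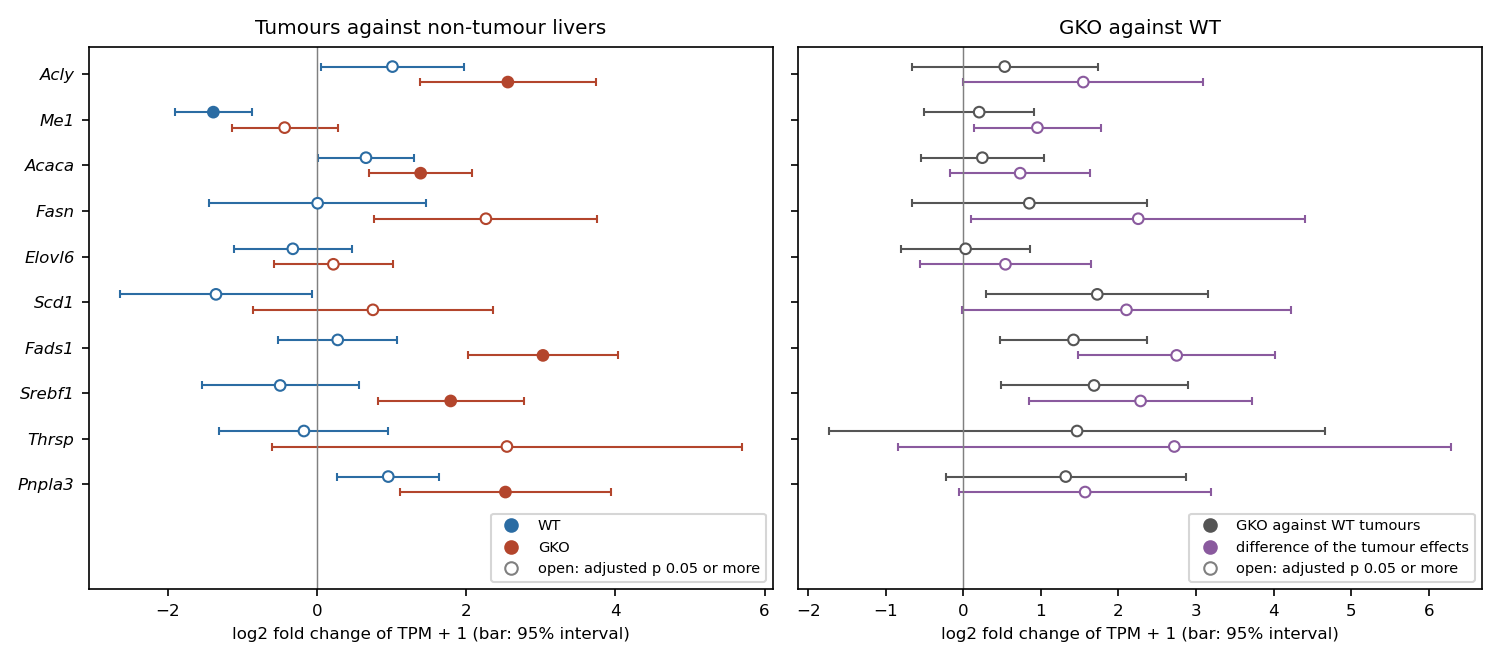
Log2 differences on the log2(TPM + 1) scale, on the horizontal axis, for the 10 genes, with points at the estimate, bars for 95% intervals and filled points for an adjusted p under 0.05. The left panel gives WT and GKO tumours against their own non-tumour livers, where Fads1 is at 0.28 in WT and 3.03 in GKO mice, and the right panel gives GKO against WT tumours and the difference of the 2 tumour effects, where no point is filled.

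Within WT mice, Me1 was the member that passed. It fell by 1.39 on the log2 scale (SE 0.22, limma adjusted p = 0.02), as 1 of the 9 members, whereas 4.23% of 14003 genes were called, 2.07% as lower. The median of the 9 was -0.17 and that of all genes -0.02. Me1 was no longer called without WT non-tumour liver 1 or 3 or without WT tumour 1 or 2, with WT tumours 1 and 2, the most alike pair, averaged, or with the replicate number as a block (adjusted p between 0.0585 and 0.113). For Scd1 (ENSMUSG00000037071, chr19:44394455-44407879, minus strand) the 3 WT tumours lay between 275 and 302 TPM, and the WT non-tumour livers had 1664, 674.5 and 345 TPM. These ranges did not overlap, but the log2 difference of -1.35 did not pass after adjustment (SE 0.54, limma adjusted p = 0.233). It was -0.76 without WT non-tumour liver 1 and -1.89 without WT non-tumour liver 3. Scd1 and Me1 were the 2 of the 9 members whose WT groups did not overlap, both with the tumours lower, whereas 24.8% of all genes did not overlap, 13.9% with the tumours lower.

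Within GKO mice, 4 of the 9 members rose in tumours and none fell, against 7.75% of 14092 genes called as higher (11.7% called in either direction). Higher genes were 66.1% of these calls, and 44% after median centring. Fads1 rose by 3.03 (SE 0.43, limma adjusted p = 0.00949) and Acly by 2.56 (SE 0.50, adjusted p = 0.0231). Acaca rose by 1.39 (SE 0.29, adjusted p = 0.0281). Acly and Acaca are enzymes at the start of fatty acid synthesis, and Fads1 is a desaturase of polyunsaturated fatty acids. The fourth was Srebf1, which encodes SREBP-1, and it rose by 1.79 (SE 0.42, limma adjusted p = 0.0372). The median log2 difference of the 9 was 1.79, beside 0.20 over all genes, and 8 of the 9 lay above 0. Of these 9 members 5 had GKO tumours that did not overlap GKO non-tumour livers, all with the tumours higher, and 38.3% of all genes did not overlap (25.7% with the tumours higher).

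The calls in GKO mice depended on single libraries. With GKO non-tumour liver 3 left out no member was called, and 229 of all genes were called, in place of 1652. Fads1 was then at a limma adjusted p of 0.0509. Without GKO tumour 1, or without GKO non-tumour liver 2, only Fads1 was called of the 10. Without GKO tumour 3 Fads1 and Pnpla3 were called, and without GKO non-tumour liver 1 Fads1 and Acly. Without GKO tumour 2, 7 of the 10 were called, with Fasn and Thrsp added. Over all genes, the fits with 1 library left out called 229 to 1567, and the counts of 10 members include Pnpla3.

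Fasn, which builds palmitate (ENSMUSG00000025153, chr11:120805846-120824547, minus strand), had 63.5, 16.4 and 116.4 TPM in GKO tumours and 7.21, 12.3 and 9.88 TPM in GKO non-tumour livers. The groups did not overlap, and the log2 difference of 2.26 did not pass (SE 0.64, limma adjusted p = 0.0614). Leaving out GKO tumour 2 raised it to 3.04 (limma adjusted p = 0.00716). In WT tumours Fasn was held between 25.6 and 28.4 TPM, and the WT non-tumour livers had 22.8, 74.7 and 11.2 TPM. WT non-tumour liver 2 was the second highest of the 18 libraries for Fasn, and without it tumours of both genotypes were 1.58 higher on the log2 scale (adjusted p = 0.0290).

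Srebf1 (ENSMUSG00000020538, chr11:60199089-60222581, minus strand) was at 104.7, 99.96 and 273.6 TPM in GKO tumours and at 42.9, 31.2 and 48.9 TPM in GKO non-tumour livers. WT tumours had 58.8, 58.3 and 23.8 TPM, and WT non-tumour livers 92.6, 42.6 and 59.0 TPM. The 3 GKO tumours exceeded every other library, and the WT groups overlapped. The gene's reads were counted together for the SREBP-1a and SREBP-1c forms, which start at different exons, so the forms were not separated.

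Thrsp, a small protein that promotes the activity of lipogenic enzymes (ENSMUSG00000035686, chr7:97412938-97417730, minus strand), varied most. The GKO tumours had 68.2, 6.09 and 492 TPM, and GKO non-tumour livers 6.48, 7.17 and 18.9 TPM. WT tumours had 19.5, 20.7 and 24.8 TPM, and WT non-tumour livers 16.96, 55.1 and 15.3 TPM. GKO tumour 2 lay below every GKO non-tumour liver and the other two GKO tumours above them. The log2 difference within GKO mice was 2.55 (SE 1.35, limma adjusted p = 0.232), and it was 4.11 without GKO tumour 2 (adjusted p = 0.0332) and 1.05 without GKO tumour 3 (adjusted p = 0.516).

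Elovl6, which lengthens palmitate to stearate (ENSMUSG00000041220, chr3:129532355-129638495, plus strand), was not called in any comparison. WT tumours had 8.46 to 10.7 TPM and GKO tumours 12.9, 5.23 and 13.4 TPM. Non-tumour livers had 7.38 to 19.0 TPM in WT and 7.77 to 9.12 TPM in GKO mice. Tumours of either genotype overlapped their non-tumour livers.

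Pnpla3 (ENSMUSG00000041653, chr15:84167837-84187236, plus strand) was at 3.57, 1.66 and 16.1 TPM in GKO tumours and at 1.33, 0.786 and 2.20 TPM in WT tumours. GKO non-tumour livers held 0, 0.0824 and 0 TPM, and WT non-tumour livers 0.472, 0.237 and 0 TPM. Every tumour exceeded every library without tumour, and 9 of the 12 latter libraries held 3 reads or fewer. The 3 GKO tumours held 276 reads and the 3 GKO non-tumour livers 1 read, a ratio per read of depth of 215.6 with an exact 95% interval from 38.39 to 8548. For the WT groups the ratio was 5.933 (2.916 to 13.63), from 57 and 9 reads. The intervals cover counting error only and not the spread between samples.

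The promoters of 3 of the genes that were highest in GKO tumours are shown because SREBP-1 and NF-Y are known to act together at lipogenic promoters. RefSeq windows of 300 bases (250 before to 50 after the start, GRCm38.p6, the same assembly as mm10) were at hand for 8 members, not for Scd1 and Fads1. Capitals mark CCAAT, the letters bound by NF-Y, and the GC box GGGCGG, bound by Sp1, on either strand. The windows are Acly at chr11:100527951-100528250 (minus strand), Fasn at chr11:120824498-120824797 (minus strand) and Pnpla3 at chr15:84167566-84167865 (plus strand).
Acly: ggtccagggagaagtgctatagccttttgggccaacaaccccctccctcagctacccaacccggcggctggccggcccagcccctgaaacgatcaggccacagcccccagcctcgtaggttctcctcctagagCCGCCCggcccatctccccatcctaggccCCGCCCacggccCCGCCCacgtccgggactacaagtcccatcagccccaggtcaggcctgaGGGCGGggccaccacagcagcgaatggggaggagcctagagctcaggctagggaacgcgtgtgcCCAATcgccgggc
Fasn: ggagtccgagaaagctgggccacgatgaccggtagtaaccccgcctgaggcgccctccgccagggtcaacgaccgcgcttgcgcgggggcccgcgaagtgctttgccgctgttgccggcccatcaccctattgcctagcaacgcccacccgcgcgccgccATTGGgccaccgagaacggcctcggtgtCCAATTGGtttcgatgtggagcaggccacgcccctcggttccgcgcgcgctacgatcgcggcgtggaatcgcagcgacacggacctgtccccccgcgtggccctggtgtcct
Pnpla3: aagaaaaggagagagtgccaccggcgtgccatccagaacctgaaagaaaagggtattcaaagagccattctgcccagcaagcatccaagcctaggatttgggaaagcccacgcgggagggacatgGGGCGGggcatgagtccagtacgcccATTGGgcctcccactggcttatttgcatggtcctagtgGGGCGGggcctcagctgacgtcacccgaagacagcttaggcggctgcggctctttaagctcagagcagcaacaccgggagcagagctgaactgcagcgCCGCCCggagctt
CCAAT was found in 7 of the 11 windows of these members, and 37.4% of all 32851 windows hold it. GGGCGG was found in 5 of the 11, and 35.7% of all windows hold it. Srebf1 has 3 windows and Me1 has 2, and by gene CCAAT was found for Acly, Fasn, Me1, Pnpla3, Srebf1 and Thrsp. The CCAAT of the Acly window lies 37 bases after the start. Acaca, whose mean was also highest in GKO tumours, and Elovl6 held neither CCAAT nor GGGCGG in their windows. Neither the sterol element TCACNCCAC (1.24% of windows) nor the E-box CACGTG (7.15%) was found for a member, searched on both strands, which says only that these letters are not in these windows. Me1, which fell in tumours, held both CCAAT and GGGCGG in its windows.

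GKO tumours were next compared with WT tumours. The deletion was in every tissue of the mouse, so this comparison does not isolate its effect in the tumour cells. The paper reported smaller tumours with less proliferation in GKO mice, and the part of tumour size or growth was not tested. None of the 10 members passed (limma adjusted p between 0.423 and 0.989 for the 9 without Pnpla3), in a fit that called 0.0215% of 13964 genes and left 1238 genes at an unadjusted p under 0.05. The 9 were all above 0, with a median log2 difference of 0.85, beside 0.09 over all genes. For Fads1, Srebf1 and Scd1 the 3 GKO tumours all exceeded the 3 WT tumours, and 14.7% of all genes had groups that did not overlap (9.88% with GKO higher). The Scd1 values of GKO tumours 3, 1 and 2 were 1731, 1474 and 331 TPM; the last of these was close to the highest WT tumour, at 302 TPM. Fads1 was 1.42 higher (SE 0.40, unadjusted p = 0.00964, limma adjusted p = 0.423). Srebf1 was 1.69 higher (SE 0.51, unadjusted p = 0.0130, adjusted p = 0.465), and Scd1 was 1.73 higher (SE 0.60, unadjusted p = 0.0245, adjusted p = 0.511). Scd1 shares much of its sequence with Scd2, Scd3 and Scd4, so its reads could have been split between them by the counting. Under the 15 other settings tried, none of the 3 fell under an adjusted p of 0.05, and the lowest reached were 0.0836 for Fads1, 0.0901 for Srebf1 and 0.0991 for Scd1.

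The test of whether the tumour effect differed by genotype used the same tumours and non-tumour livers. It called no member, and 0.0142% of 14106 genes, with 1483 at an unadjusted p under 0.05. The difference between the GKO and the WT effect was above 0 for all 9 members, with a median of 2.10 and a median over all genes of 0.23. It was 2.75 for Fads1 (SE 0.58, unadjusted p = 0.000542, limma adjusted p = 0.272) and 2.29 for Srebf1 (unadjusted p = 0.00487, adjusted p = 0.417). For Me1 the difference was 0.96 (unadjusted p = 0.0262, adjusted p = 0.468). Because the WT and GKO groups enter both tests, the 2 results are not independent.

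In livers without tumour, no member passed in either of the comparisons made. For non-tumour livers against normal livers 0.4% of 13488 genes were called and 2804 had an unadjusted p under 0.05. Srebf1 averaged 64.8 ± 25.5 and 41.0 ± 9.02 TPM in WT and GKO non-tumour livers and 25.7 ± 6.37 and 34.3 ± 15.8 TPM in the normal livers. It was 0.78 higher on the log2 scale (SE 0.27, limma adjusted p = 0.161), and Thrsp was 1.00 higher (SE 0.40, adjusted p = 0.202), or 0.65 without WT non-tumour liver 2. The 9 members had a median of 0.23, near the 0.21 of all genes, and none had groups that did not overlap (1.79% of all genes). For GKO against WT livers without tumour, 0% of genes were called by limma and 594 had an unadjusted p under 0.05. All 9 members were below 0 in that comparison, with a median of -0.34 beside -0.05 over all genes. The direction was not the same in the 2 tissues, which were not tested singly and for which no share of all genes was taken. The members vary together, so the 9 are not separate observations. The GKO mean lay below the WT mean for 9 of the 9 in non-tumour livers. In normal livers it lay above the WT mean for 7 of the 9, all but Scd1 and Me1. The lowest was Fads1 at -0.62 (unadjusted p = 0.0558, adjusted p = 0.841), whose GKO non-tumour livers averaged 74.1 ± 21.7 TPM and WT non-tumour livers 195 ± 88.2 TPM, while GKO normal livers averaged 107 TPM and WT normal livers 97.6 TPM. Without WT non-tumour liver 2 it was -0.38. In this contrast no member had groups that did not overlap, and 0.148% of all genes did.

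**Figure D3:**
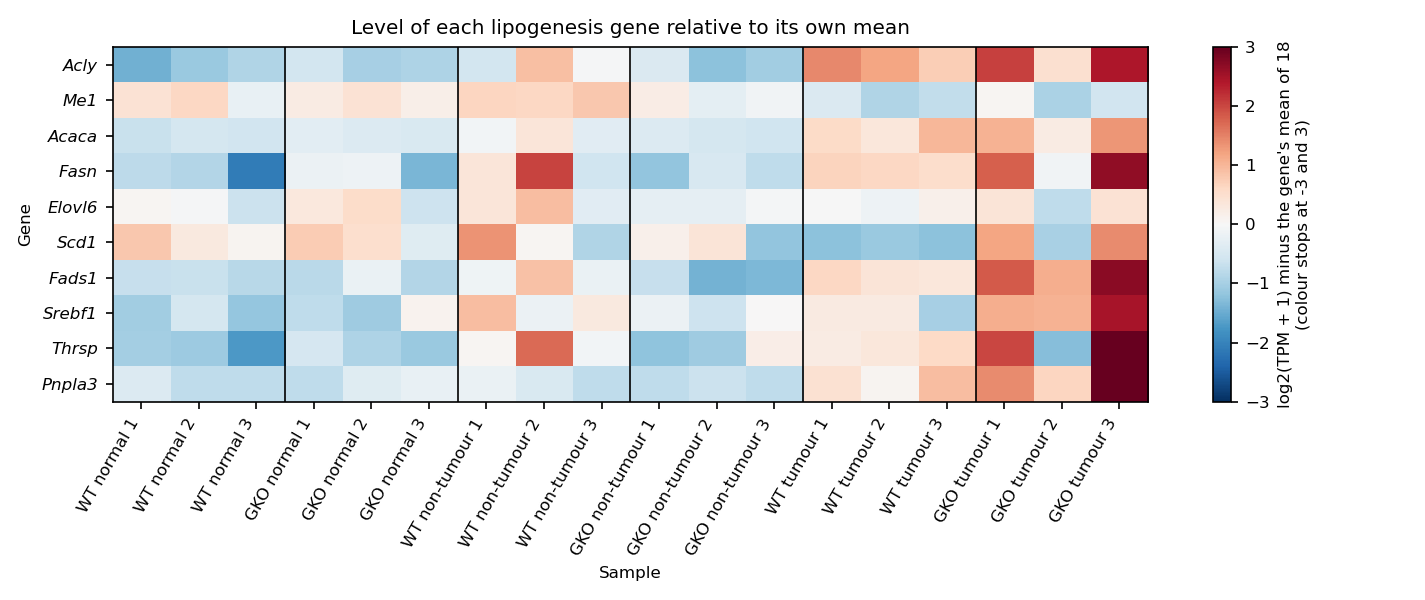
Level of each gene in each library as log2(TPM + 1) minus the gene's mean over the 18 libraries, with genes in rows and libraries in columns and colours that stop at -3 and 3. GKO tumours 1 and 3 are the strongest columns, while GKO tumour 2 lies above the mean for Fads1 and Srebf1 and below it for Scd1, Me1 and Thrsp.

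Over the members, the spread between GKO tumours was the widest of any group, and no like figure was taken over all genes. The highest GKO tumour was a median of 3.50 times the lowest over the 10 members (from 2.06 to 80.8 times), against 1.34 times in WT tumours (from 1.10 to 2.79 times). Non-tumour livers had medians of 2.57 in WT and 1.64 in GKO mice, over 9 members, because Pnpla3 was at 0 TPM in some of them and gave no ratio. The widest gene was Thrsp and the narrowest range belonged to Scd1 in WT tumours, at 1.10 times. GKO tumour 3 was the highest of all 18 libraries for 8 of the 10 members. GKO tumour 1 was second for 6. These ranks were not taken over all genes, so they are not shown to be particular to the members. GKO tumour 3 also had the highest sum for glucose uptake and use (8171.6 TPM), regulators (1207.5 TPM) and clock genes (484.2 TPM). It did not for cholesterol synthesis (421 TPM). Over the 10 members the median log2 deviation from the gene's mean was 2.45 in GKO tumour 3, 1.30 in GKO tumour 1 and 0.08 in GKO tumour 2. WT tumours had 0.37, 0.30 and 0.43, so GKO tumour 2 was below each of the WT tumours on this measure. Among the 12 libraries without tumour, WT non-tumour liver 2 was highest for 6 members (Acly, Acaca, Fasn, Elovl6, Fads1 and Thrsp) and WT non-tumour liver 1 for 3 (Scd1, Srebf1 and Pnpla3). WT non-tumour liver 2 differed from its replicates. Its r with WT non-tumour livers 1 and 3 was 0.929 and 0.933, against 0.970 between those. It held 5.95 TPM of Clec4f and 6.23 TPM of Dcn, against 75.2 and 35.7 TPM in liver 1 and 124 and 30.6 TPM in liver 3. Its summed hepatocyte markers, 72711 TPM, were not at the level of the tumours. The reason was not tested.

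The balance of the 2 desaturases differed with tissue. Scd1 was 5.72 to 12.0 times as abundant as Fads1 in the normal livers, 1.11 to 1.41 times in WT tumours and 0.954 to 2.55 times in GKO tumours. In non-tumour livers the ratio was 11.3, 2.28 and 2.46 in WT and 7.32, 14.1 and 4.57 in GKO mice. Both tumour groups thus lay below the normal livers in every library, and this is a description of levels with no test.

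Deviations of the members from their group means were compared. The correlation of a member's deviations from its 6 group means with those of the members' average was 0.908 for Thrsp, 0.873 for Fasn and 0.868 for Fads1. It was 0.475 for Me1 and 0.322 for Srebf1, the lowest. Of the 45 pairs of members 43 were positive, with a median r of 0.49, beside a median of 0.13 and 62.7% positive over all pairs of the 6860 genes compared. These coefficients run over 18 libraries, in which each gene shares the library's depth and composition with the others, and the member's own value is part of the average. Over the members the spread was widest in GKO tumours, so these libraries weigh heavily in the coefficients, which were not taken without them. Outside the members, the 5 genes with the most similar deviations among 6850 genes were Ugt1a5 (r = 0.901), A1cf (0.898), Cep85 (0.885), Cyb5r3 (0.885) and Prps1l3 (0.869). Ugt1a5 belongs to the Ugt1a locus, whose isoforms share exons, so its reads are uncertain, and A1cf encodes a cofactor of apolipoprotein B mRNA editing.

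**Figure D4:**
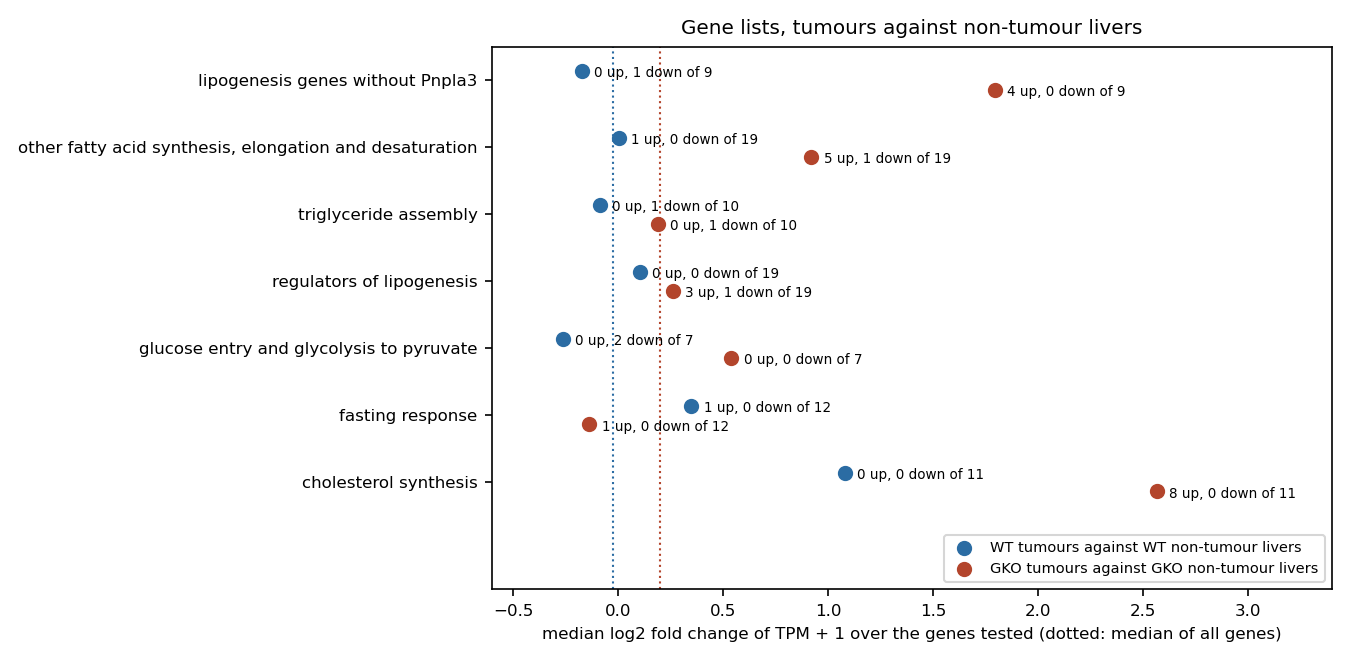
Median log2 difference between tumours and non-tumour livers for each gene list, on the horizontal axis, in WT and GKO mice, with the number of genes called higher and lower and a dotted line at the median of all genes. Cholesterol synthesis has medians of 1.08 in WT and 2.57 in GKO mice, and 9 of the 10 members enter, without Pnpla3.

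Other genes of fatty acid synthesis, elongation and desaturation were read from a list of 21, of which 19 were tested. Over both genotypes 5 were called higher in tumours and 1 lower. Scd2, a stearoyl-CoA desaturase that is low in adult liver, rose by 3.94 on the log2 scale, with 49.8 ± 35.0 TPM in WT tumours and 1.81 ± 0.732 TPM in WT non-tumour livers. Fads2, the delta-6 desaturase that acts before Fads1, rose by 2.57, with 1433 TPM on average in GKO tumours and 65.0 TPM in GKO non-tumour livers. Elovl3, an elongase of very long saturated chains, fell by 4.67. In WT mice 1 was called (Scd2) and in GKO mice 5 rose and 1 fell. The median was 0.00 in WT and 0.92 in GKO mice.

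Of 19 genes that regulate lipogenesis 2 rose and 1 fell over both genotypes, no larger a share than the 20.1% called among all genes. Mid1ip1, a partner of Thrsp in acetyl-CoA carboxylase activation, rose by 1.15 and Srebf2 by 0.90. Mlxipl, which encodes ChREBP, fell by 1.26, with 29.95 TPM in WT tumours and 72.6 TPM in WT non-tumour livers. In GKO mice Insig1, an inhibitor of SREBP processing that is itself a SREBP target, rose by 2.22 and Mid1ip1 by 2.12, while Mlxipl fell by 1.52. Within WT mice none of the regulators was called.

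Of 11 cholesterol synthesis genes, which are targets of SREBP-2, 7 rose over both genotypes and 8 in GKO mice. Sqle, squalene epoxidase, rose by 2.97 over both genotypes and by 3.79 in GKO mice. No cholesterol synthesis gene was called in WT mice, although their median was 1.08. The summed level of the list was 1022 TPM in WT non-tumour liver 2, higher than in any tumour, and 58 to 197 TPM in the other livers without tumour. Of the 10 genes of triglyceride assembly none rose and 3 fell over both genotypes, Mogat1 by 1.70, Lpin2 by 1.09 and Gpat4 by 1.08. In WT mice Gpat4 alone of them was called, and in GKO mice Mogat1.

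Of 7 genes of glucose uptake and use none was called over both genotypes or in GKO mice. In WT mice 2 of the 7 were called lower, among them Slc2a2, the glucose transporter of hepatocytes, which fell by 2.89. Of 12 genes of the fasting response Igfbp1 rose by 5.40 and Cyp4a14 fell by 4.90 over both genotypes. Within WT mice Igfbp1 rose by 6.65, and within GKO mice Cpt1a, which admits fatty acids to mitochondria, rose by 1.67. The summed level of the fasting list was lowest in GKO tumour 1 (1213.7 TPM) and WT non-tumour liver 2 (2047.6 TPM), against 3736.5 to 6785.5 TPM in the other 16 libraries. Igfbp1 alone held 2589.8, 2328.2 and 3716.5 TPM of this sum in WT tumours 1 to 3. It held 121.65, 3782 and 215.7 TPM in GKO tumours 1 to 3, and 8.78 to 67.5 TPM in livers without tumour. The order of the sums thus rests in part on this gene, and the sums are not a like measure in the 2 kinds of tissue. GKO tumour 1 and WT non-tumour liver 2 were also among the libraries highest for the members. GKO tumour 3, the highest of all for the members, was 1 of those 16, at 4855.4 TPM. The part of feeding state in the members' levels was not tested.

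The clock list of 11 genes, among them Dbp, Per1, Per3 and Ciart, had no gene called in any comparison. Between GKO and WT tumours 8 of the 11 did not overlap, with a median log2 difference of 1.01, beside the 14.7% given above for all genes. The direction was mixed: 7 of the 11 were higher in GKO tumours, among them Dbp, Per1, Per3 and Ciart. Arntl and Npas2 were lower without overlap. Arntl was at 1.69 to 5.15 TPM in WT and 0.288 to 0.601 TPM in GKO tumours. Npas2 was at 0.568 to 2.68 TPM in WT and 0.158 to 0.559 TPM in GKO tumours. The summed level was 306.5, 245.6 and 484.2 TPM in GKO tumours and 126, 117.1 and 178.4 TPM in WT tumours. Clock genes vary with the hour of sampling, which was not found in the labels, and their part in the members' differences between tumours was not tested.

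Markers of hepatocytes summed to 167350 to 207150 TPM in tumours and 60466 to 91416 TPM in livers without tumour, so every library held them in large amounts. Of the 8 markers 2 rose over both genotypes, Alb by 1.70 and Apoa1 by 1.34, and the other 6 were not called. Ttr stood at -0.31 and Ass1 at -0.39, so the higher sum did not extend to every marker. Because TPM values share a fixed total, a gain of these transcripts lowers every other value in the same library. Of the adipocyte markers Lep was at 0 in all 18 libraries, and Adipoq, Plin1 and Retn reached at most 0.43 TPM. The summed adipocyte level was 4.3 to 71.7 TPM, and Fabp4 rose by 2.37 and Cfd fell by 2.09 in tumours. Of 7 macrophage markers 4 fell in tumours over both genotypes, led by Clec4f (-2.97) and Marco (-2.76). Of 5 endothelial markers Pecam1 and Kdr rose by 1.29 and 0.76, and the other 3 were not called, with Clec4g at -0.93. Of 6 fibroblast and stellate markers Col1a1 rose by 3.06 and Col3a1 by 2.38, while Dcn and Lrat fell by 1.81 and 0.93. No T cell, B cell or cholangiocyte marker was called over both genotypes. The summed cholangiocyte level was 37.6, 959 and 548.7 TPM in GKO tumours 1 to 3, of which Spp1 made up 34.0, 934 and 536 TPM, and GKO tumour 2, the highest of these, was the lowest GKO tumour for the members. The part of these cells in the members' values was not tested.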

How the data were processed

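RNA was sequenced from 18 mouse liver and tumour samples. Per the labels and the submitters' processing notes, the authors used STAR 2.7.3a, featureCounts 2.0.0 (Subread) and the mm10 build, and deposited 1 table of TPM values for the 18 libraries. The gene annotation and the handling of strand and multimapping reads are not given in the sources used here. TPM times the exonic length in GENCODE M21 gave whole reads (within 0.02) for 97.95% to 98.67% of values up to 30 reads, and depth was taken from these.

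The test for differences of log2(TPM + 1) was limma 3.58.1, run in R 4.3.3 with a trended eBayes. Genes entered at an average of 0.5 TPM or more in the compared samples, with Benjamini-Hochberg adjustment over all of them and calls at an adjusted p under 0.05. Folds on this scale understate changes of low genes. The two-sided tests used the groups of each comparison, with genotype as a covariate where both entered, or tissue in livers without tumour. The fit was tested on simulated data. The members, the 16 lists (145 genes) and their tests were chosen with earlier results of these data known. Named genes are the 10 members, in each other list the called genes with the largest change, at most 2 in each direction, and the 5 genes most like the members among those averaging 5 TPM or more. Dbp, Per1, Per3, Ciart, Arntl, Npas2, Spp1 and the adipocyte markers were named after their values were seen. A few genes that this rule names are not reported here.

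Other settings were a pseudocount of 0.1, no filter, a filter at 5 TPM, median centring, all 18 samples in one fit, eBayes without trend, the replicate number as a block, voom on recovered reads, WT tumours 1 and 2 averaged, and each sample left out. The replicate numbers were checked for pairing: of the 15 pairs of groups, only WT and GKO tumours had all 3 correlations of same-numbered samples' deviations over 0.1 (0.101, 0.12 and 0.197), and no label gives these numbers a shared source. Python 3.11.15 with pandas 2.3.3, numpy 2.4.6 and matplotlib 3.10.9 was used for tables and plots.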

Additional observations from a re-analysis of the deposited data

How the results depend on the processing

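No member changed direction in any setting in the 34 member comparisons with an unadjusted p under 0.1 or a changed call (599 refits), and in 16 of the other 34 the sign turned in 37 of 611 refits. Over both genotypes 5 members were called, Pnpla3 included (4 without it), and with a filter at a mean of 5 TPM this was 3, because Acaca and Pnpla3 lay under the filter; leaving out 1 sample gave 4 to 6. In WT mice 1 was called, with the replicate block 0 and with WT tumours 1 and 2 averaged 0, and leaving out 1 sample gave 0 to 1. In GKO mice 5 were called (4 without Pnpla3), without a filter 1 (Fads1), with the replicate block 5, and leaving out 1 sample gave 0 to 7. The cause was not tested. In the other 4 comparisons no member was called under any setting, the replicate block for GKO against WT tumours included, where it left 0 of all genes called in place of 3. Beside that of Me1 in WT mice, the block ended the call of Fads1 over both genotypes and changed no other. Over all genes, called counts ran from 1662 to 3840 for both genotypes (2829 as reported), 163 to 1649 for WT (592) and 229 to 2722 for GKO mice (1652), 0 to 147 for GKO against WT tumours (3), 0 to 91 for the difference of effects (2) and 1 to 738 for non-tumour against normal livers (54). Median centring lowered the share of calls that were higher from 60.8% to 44.5% over both genotypes and from 66.1% to 44% in GKO mice, and from 96.3% to 0% (of 2 genes) for non-tumour against normal livers, and turned the direction of no called member. Depth limits Pnpla3, which rests on few reads outside tumours.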
